A study of Mus musculus with 12 samples.

Results

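Nox4 and 9 antioxidant defence genes (Nqo1, Gclc, Gclm, Hmox1, Txnrd1, Srxn1, Cat, Sod2 and Gpx1) were followed in the liver of female mice with and without estrogen receptor alpha. A probe set was taken when the platform annotation gave it one of these 10 symbols, and every probe set of a gene was kept. That gave 22 probe sets of the 45101 on the array, and 10 of the 18194 genes with a named probe set. The symbols were picked with group differences on these same arrays already known. Differences and adjusted p-values of the members are therefore given as a description of where each gene stood in the fit over all genes, and they support nothing further.

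Liver RNA was hybridised to Affymetrix expression arrays, with 12 arrays in 4 groups of 3. The groups were αERKO mice (Esr1-/-, which lack a working gene for estrogen receptor alpha) on a high-fat diet, αERKO mice on a normal diet, wild type mice (WT, Esr1+/+) on a high-fat diet and WT mice on a normal diet. All were adult females of the B6.129 background. The high-fat diet was a research diet with 60 kcal% fat, the normal diet was NIH-31, and feeding lasted 2 weeks. The genotype label names no deletion limited to the liver or to a cell type. Whether the replicates of a group were separate animals is not stated, so a p-value below reflects the scatter among samples and may hold only technical error.

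Reactive oxygen in the liver comes from electron transport, from oxidases and from enzymes such as NOX4, an NADPH oxidase that is active without a stimulus once it is made and releases mostly hydrogen peroxide. Against it stand enzymes that remove superoxide (SOD2 in mitochondria) and peroxide (catalase in peroxisomes, glutathione peroxidase GPX1), and the thioredoxin and glutathione systems that keep protein thiols reduced. Many of the genes behind these thiol systems are switched on by the transcription factor NRF2, which binds antioxidant response elements after its inhibitor KEAP1 lets it go.

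The 2 brighter of the 3 probe sets for Esr1 separated the genotypes as labelled. The brightest ranged from 663 to 885 in αERKO high-fat and 586 to 681 in αERKO normal livers, against 3140 to 3676 in WT high-fat and 1963 to 3930 in WT normal livers. The dimmest did not: it read 5.30 to 23.6 on the αERKO arrays, and WT normal replicate 2 was at 7.61, inside that range. The 7 measured hepatocyte markers were above the array's median on every array. Transcripts of 9 pancreatic acinar genes, with a mean log2 signal of at most 6.28 on the other arrays, reached 13.5 in replicate 1 of the αERKO normal livers, 12.5 in replicate 3 and 10.04 in replicate 2 of the WT livers on high fat, and 13.8 in replicate 2 of the WT livers on the normal diet. Skeletal muscle transcripts were high in αERKO normal replicate 1 (mean log2 signal 10.7) and αERKO high-fat replicate 2 (8.91). They were raised less in αERKO normal replicate 2 (7.28) and WT normal replicate 3 (7.01), and lay at 5.59 to 6.08 on the other 8 arrays. Calls and counts below are also given without the 4 arrays with pancreatic transcripts or the 2 with the most muscle transcripts where that ended a call or moved a count by over 1.5 times. Leaving out those 4 arrays left only replicate 1 in the WT high-fat group, so counts that rest on that group are then not given.

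The 250 bases before the start of transcription were read for the members that had an entry in the RefSeq promoter table (build GRCm38.p6). Of the 10 members 8 had an entry, with 10 upstream sequences in all because Txnrd1 has several starts. The sequences below are shown because they set Nox4, the member with the clearest group difference, beside the only members with a searched motif. The motif was the antioxidant response element core in Gclm and Txnrd1, and the AP-1 site in Srxn1. Capitals mark the match, and each is written 5′ to 3′ on the strand of the gene. The Nox4 sequence lies at chr7:87246399-87246648 on the + strand, Gclm at chr3:122245307-122245556 (+), Txnrd1 at chr10:82858956-82859205 (+) and Srxn1 at chr2:152105274-152105523 (+).
Nox4: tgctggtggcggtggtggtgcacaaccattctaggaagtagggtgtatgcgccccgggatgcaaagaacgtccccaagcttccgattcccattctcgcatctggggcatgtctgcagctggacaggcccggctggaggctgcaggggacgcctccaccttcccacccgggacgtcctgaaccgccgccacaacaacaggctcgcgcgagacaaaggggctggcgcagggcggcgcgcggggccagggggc
Gclm: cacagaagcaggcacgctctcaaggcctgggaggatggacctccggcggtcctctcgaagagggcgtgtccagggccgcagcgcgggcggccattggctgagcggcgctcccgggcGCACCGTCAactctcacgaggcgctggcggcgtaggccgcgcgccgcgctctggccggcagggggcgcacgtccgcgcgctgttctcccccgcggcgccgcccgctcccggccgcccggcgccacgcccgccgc
Txnrd1: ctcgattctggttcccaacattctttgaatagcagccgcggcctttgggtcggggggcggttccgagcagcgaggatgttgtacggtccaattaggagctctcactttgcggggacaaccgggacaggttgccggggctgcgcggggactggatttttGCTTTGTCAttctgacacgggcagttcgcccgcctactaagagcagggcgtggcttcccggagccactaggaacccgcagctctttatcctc
Srxn1: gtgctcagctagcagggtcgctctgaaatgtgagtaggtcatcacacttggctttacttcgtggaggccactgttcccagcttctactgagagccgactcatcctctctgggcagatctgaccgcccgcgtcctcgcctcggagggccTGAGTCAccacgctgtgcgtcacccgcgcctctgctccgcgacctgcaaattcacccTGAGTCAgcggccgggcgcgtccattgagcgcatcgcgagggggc

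The letters searched, on both strands, were TGACNNNGC for the core of the antioxidant response element, TGANTCA for the AP-1 site and, for the estrogen response element, GGTCA followed by a spacer of 3 bases and its reverse complement. The antioxidant core was found in Gclm, 134 to 126 bases upstream of the start, and in 1 start of Txnrd1, 92 to 84 bases upstream, in both cases read on the other strand. It was present in 10.2% of the 32851 upstream sequences in the table. Srxn1 held the AP-1 letters at 102 to 96 and at 45 to 39 bases upstream, and 6.75% of all upstream sequences held them. The estrogen response element was in 0.0639% of all sequences and in 0 of the 10 member sequences. These are matches of letters in a short window and say nothing of binding.

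Nox4, the catalytic subunit of its oxidase, was the member that differed most between genotypes. On the brighter of its 2 probe sets (1451827_a_at), the MAS5 signal, a linear intensity, was 2029, 2169 and 1995 in αERKO high-fat livers and 2698, 2111 and 2206 in αERKO normal livers. In WT it was 1006, 1280 and 722 on the high-fat diet and 629, 480 and 446 on the normal diet. All 6 αERKO arrays lay above all 6 WT arrays, and within WT every high-fat array lay above every normal-diet array. The mean was 2064 ± 92.4 in αERKO high-fat and 2339 ± 315 in αERKO normal livers, against 1003 ± 279 in WT high-fat and 518 ± 97.6 in WT normal livers (SD, n = 3 each). The order of the levels was thus αERKO on either diet, whose ranges overlapped, then WT high-fat, then WT normal.

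The dimmer Nox4 probe set (1419161_a_at) gave the same order. Its signals were 865, 730 and 804 in αERKO high-fat and 955, 899 and 833 in αERKO normal livers, against 353, 409 and 314 in WT high-fat and 204, 158 and 101 in WT normal livers. The lowest of these, WT normal replicate 3, was below that array's median signal of 114, so its size is uncertain. Over the 12 arrays the 2 probe sets had a Pearson correlation of 0.983, which is a description because both read the same RNA.

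**Figure D1:**
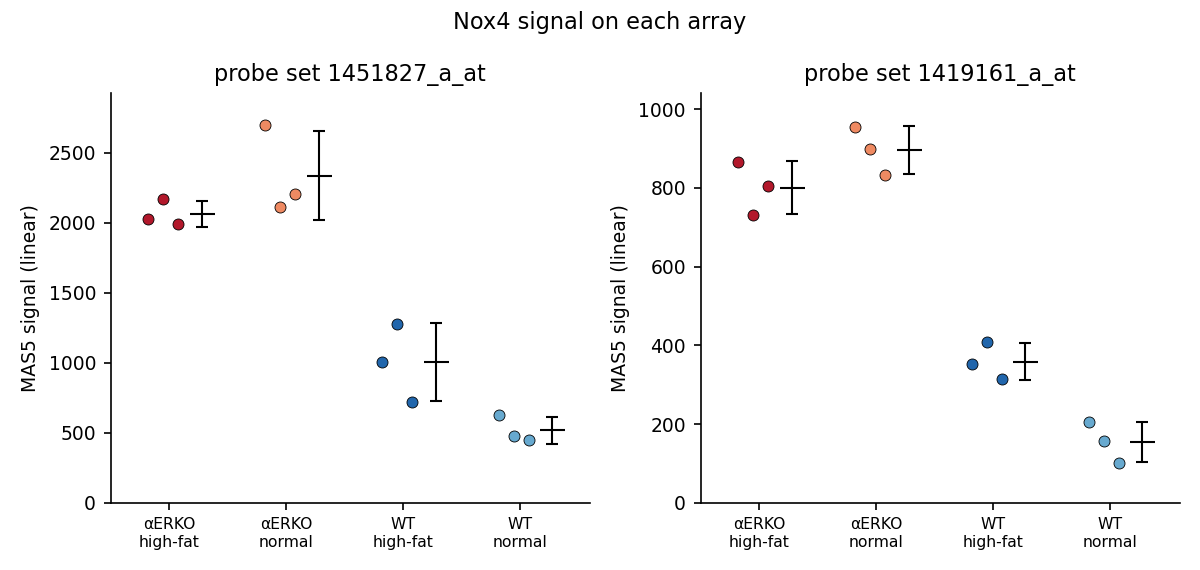
Nox4 signal (linear MAS5 intensity, vertical axis from 0) on each array for its 2 probe sets, in the 4 genotype-by-diet groups. Points are arrays and bars are the mean ± SD of 3 arrays; on both probe sets all αERKO points lie above all WT points, and WT high-fat points lie above WT normal points.

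In the fit over all genes, with differences on the log2(signal + 16) scale, Nox4 was higher in αERKO than in WT livers by 2.15 ± 0.19 (SE) on the normal diet, a 4.43-fold difference (limma, adjusted p = 2.07e-05). On the high-fat diet the difference was 1.07 ± 0.19, or 2.09-fold (limma, adjusted p = 0.00791). Its call on the high-fat diet ended without αERKO high-fat replicate 2 (1.03, limma, adjusted p = 0.0506). That call also ended with pancreatic and muscle scores as covariates (limma, adjusted p = 0.0703), while the normal-diet call held in all 26 alternatives. Without the 4 arrays with pancreatic transcripts only replicate 1 of WT high-fat was left, and the high-fat difference was 1.02. Averaged over the diets, the difference was 1.61 ± 0.13. In WT livers Nox4 was 1.88-fold higher on the high-fat than on the normal diet (0.91 ± 0.19), which did not pass over all genes (limma, adjusted p = 0.104), and the same held for the dimmer probe set (1.18 ± 0.20, limma, adjusted p = 0.0715). Without WT high-fat replicate 3 the diet difference passed (1.12, limma, adjusted p = 0.0293). In αERKO livers the diet difference was -0.17 ± 0.19 with a 95% interval of -0.58 to 0.23.

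The diet response of Nox4 in αERKO minus that in WT was -1.08 ± 0.27, with a 95% interval of -1.65 to -0.51. Its unadjusted p was 0.00120, and after adjustment over the 12264 genes it was 0.437 (limma). No gene passed for this interaction (0 of 12264), although 728 genes, or 5.94%, had an unadjusted p under 0.05. A genotype dependence of the diet response of Nox4 was thus not established at 3 arrays a group.

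Because whole liver was measured, fewer cells of a type and less RNA per cell cannot be told apart. Nox4 is also made by hepatic stellate cells. The mean log2 signal of 9 stellate markers overlapped between the groups, at 9.77 to 9.99 in αERKO high-fat, 9.63 to 9.91 in αERKO normal, 9.75 to 10.30 in WT high-fat and 9.81 to 9.91 in WT normal livers. Of these markers 0 of 9 were called in either direction for genotype on either diet. Macrophage markers ran the other way from Nox4: the mean log2 signal of 11 markers was 9.99 to 10.23 in αERKO high-fat and 9.88 to 10.43 in αERKO normal livers, against 10.32 to 10.76 in WT high-fat and 10.51 to 10.61 in WT normal livers. On either diet 0 of these 11 were called for genotype, and with the diets averaged 2 were called lower. Hepatocyte markers also had negative median differences between αERKO and WT, at -0.20 on the normal and -0.14 on the high-fat diet. There 1 of 7 and 0 of 7 were called lower. Red blood cell markers overlapped between the genotypes by mean log2 signal over 4 measured genes. It was 6.05 to 7.13 in αERKO high-fat and 6.37 to 6.68 in αERKO normal livers. In WT livers it was 5.55 to 5.92 on the high-fat and 5.70 to 6.46 on the normal diet. Their summed signal was 723 to 1484 on the 6 αERKO arrays, against 291 to 569 on the 6 WT arrays, without overlap. Most of this sum was Alas2, which encodes the erythroid enzyme that starts heme synthesis, with 680 to 1104 in αERKO high-fat and 936 to 1407 in αERKO normal livers, against 201 to 288 in WT high-fat and 252 to 390 in WT normal livers. Alas2 was called higher in αERKO on the high-fat diet (1.89 ± 0.22, limma, adjusted p = 0.000291) and on the normal diet (1.86 ± 0.22, limma, adjusted p = 0.000323). The other 3 (Epb42, Hemgn and Slc4a1) were too dim to be tested. The part of these cell types in the Nox4 difference was not tested.

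Of the 10 members, 1 was called between αERKO and WT on the normal diet, where 1.22% of all genes were called, and 1 on the high-fat diet, where 1.98% were. With the diets averaged it was again 1 of 10, with 4.32% of all genes called. For diet, 0 of the 10 members were called in WT (0.0734% of all genes), in αERKO (0.481%) or averaged over the genotypes (0.946%). In every case the called member was Nox4. Of the 21 member probe sets that passed the filter on low signals, the 2 of Nox4 were called for genotype on the normal diet, on the high-fat diet and averaged, where 0.677%, 1.29% and 3.21% of all probe sets were. For diet 0 of 21 were called in WT (0.0275% of all probe sets), in αERKO (0.181%) or averaged (0.492%). The antioxidant genes themselves differed little. Among the other 9 members the log2 differences between αERKO and WT ran from -0.40 (Txnrd1) to 0.35 (Hmox1) on the normal diet and from -0.06 (Txnrd1) to 0.75 (Hmox1) on the high-fat diet, and the lowest adjusted p was 0.185 (Txnrd1 on the normal diet, limma).

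**Figure D2:**
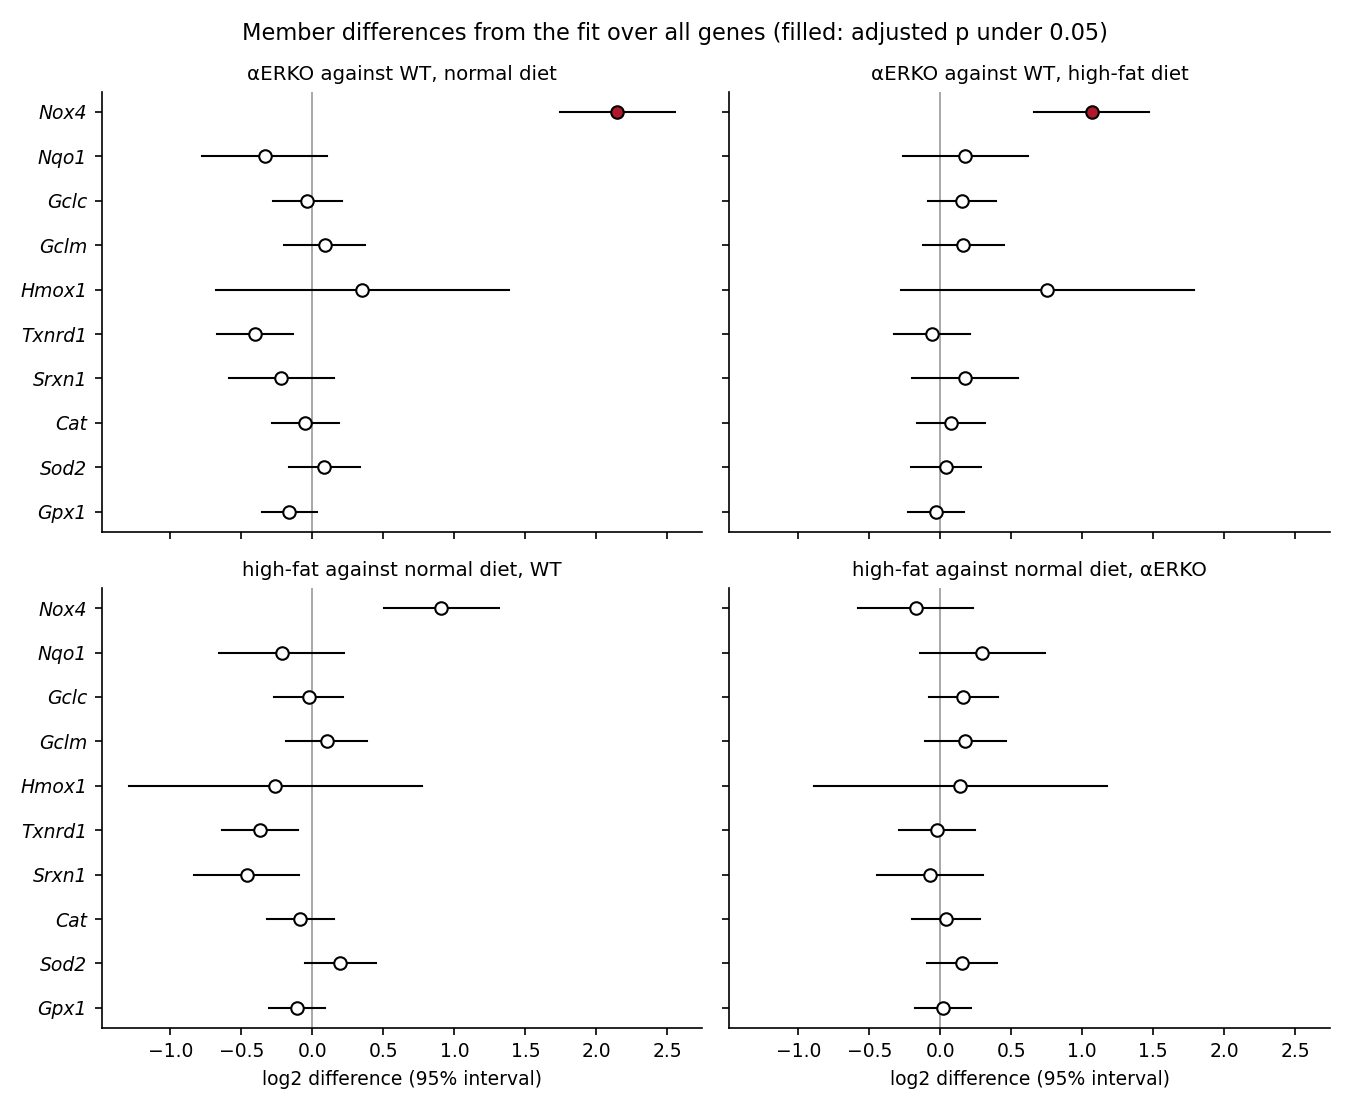
Log2 differences of the 10 members (horizontal axis) in the 4 comparisons between 2 groups, with 95% intervals from the fit over all genes; filled points have an adjusted p under 0.05. Nox4 is filled for αERKO against WT on the normal diet (2.15) and on the high-fat diet (1.07), and no other member is filled in any panel.

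How large a difference could have been missed can be read from the intervals. Leaving aside Nox4 and Hmox1, the 95% intervals of the other 8 members in these 4 comparisons lay between -0.84 (Srxn1, high-fat against normal diet in WT) and 0.74 (Nqo1, high-fat against normal diet in αERKO) on the log2 scale. Changes smaller than this were not resolved for every gene. For Hmox1 the intervals were wider, from -0.68 to 1.38 on the normal diet and from -0.28 to 1.79 on the high-fat diet for αERKO against WT.

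Nqo1 encodes a quinone reductase that is a standard readout of NRF2. Its signal was 412, 515 and 403 in αERKO high-fat and 364, 392 and 316 in αERKO normal livers, against 398, 409 and 360 in WT high-fat and 319, 472 and 617 in WT normal livers. The αERKO arrays on the high-fat diet lay above those on the normal diet, whereas WT normal livers covered nearly the whole range of the gene. None of its differences passed. The high-fat against normal difference in αERKO was 0.30 ± 0.21 (limma, adjusted p = 0.674).

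Gclc and Gclm encode the catalytic and the modifier subunit of glutamate-cysteine ligase, the first enzyme of glutathione synthesis. On its brightest probe set Gclc averaged 10974 ± 838 in αERKO high-fat and 9835 ± 1251 in αERKO normal livers, against 9887 ± 1128 in WT high-fat and 10026 ± 336 in WT normal livers (SD, n = 3 each). Gclm averaged 9234 ± 1040 in αERKO high-fat and 8138 ± 363 in αERKO normal livers, against 8231 ± 608 in WT high-fat and 7757 ± 1457 in WT normal livers. The groups overlapped for both genes on these probe sets. The dimmer Gclc probe set (1455959_s_at) was lower in αERKO normal livers, at 4971 to 6110, than in WT normal livers, at 6206 to 7559, without overlap. That difference was not called. Probe sets of the same gene did not follow each other closely. The correlation over 12 arrays was 0.34 for Gclc and -0.48 for Gclm, where WT normal replicate 3 was the lowest array on the brighter probe set and the highest on the dimmer.

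Txnrd1, which encodes the cytosolic thioredoxin reductase, stood out in the WT normal group. Its signal was 3012, 2905 and 2329 in αERKO high-fat and 2733, 2502 and 3129 in αERKO normal livers, against 2790, 2888 and 2869 in WT high-fat and 3425, 3511 and 4128 in WT normal livers. The 3 WT normal arrays were above all 9 others. Neither difference that involves them passed: αERKO against WT on the normal diet was -0.40 ± 0.12 (limma, adjusted p = 0.185), and high-fat against normal diet in WT was -0.37 ± 0.12 (limma, adjusted p = 0.448). The next brightest Txnrd1 probe set (1424486_a_at) did not separate these groups, with 152 to 183 in αERKO normal and 113 to 204 in WT normal livers, and its correlation with the brightest was -0.04. The dimmest (1424487_x_at) was above the array median on 2 of 12 arrays and was not tested.

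Srxn1 encodes sulfiredoxin, which repairs overoxidised peroxiredoxins. On its brightest probe set it averaged 855 ± 43.6 in αERKO high-fat and 899 ± 55.9 in αERKO normal livers, against 770 ± 188 in WT high-fat and 1059 ± 185 in WT normal livers (SD, n = 3 each). The spread was larger among the WT arrays than among the αERKO arrays. High-fat against normal diet in WT was -0.46 ± 0.17 (limma, adjusted p = 0.471), with overlapping groups. A different probe set of the gene (1451680_at) was lower in αERKO high-fat livers, at 396 to 486, than in αERKO normal livers, at 507 to 576, without overlap, and it was not called either.

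Hmox1 encodes heme oxygenase 1, which breaks down heme and is released from repression by BACH1. Its signal was 1296, 563 and 390 in αERKO high-fat and 1488, 424 and 330 in αERKO normal livers, against 337, 325 and 517 in WT high-fat and 395, 428 and 589 in WT normal livers. Replicate 1 of each αERKO group gave the 2 highest values of the 12, and the other 4 αERKO arrays overlapped the WT range. The difference between αERKO and WT rests on these arrays: on the high-fat diet it was 0.75 ± 0.48 and 0.27 without αERKO high-fat replicate 1, and on the normal diet it was 0.35 ± 0.48 and -0.30 without αERKO normal replicate 1. The summed signal of 5 neutrophil markers was also highest there, at 1440 on the high-fat and 3554 on the normal-diet array, against at most 1108 elsewhere. By mean log2 signal the normal-diet array was again the highest (7.98), but the high-fat array (7.23) lay below WT normal replicate 1 (7.37). αERKO normal replicate 1 also carried the pancreatic and muscle transcripts described above. Their part in the Hmox1 signal was not tested.

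**Figure D3:**
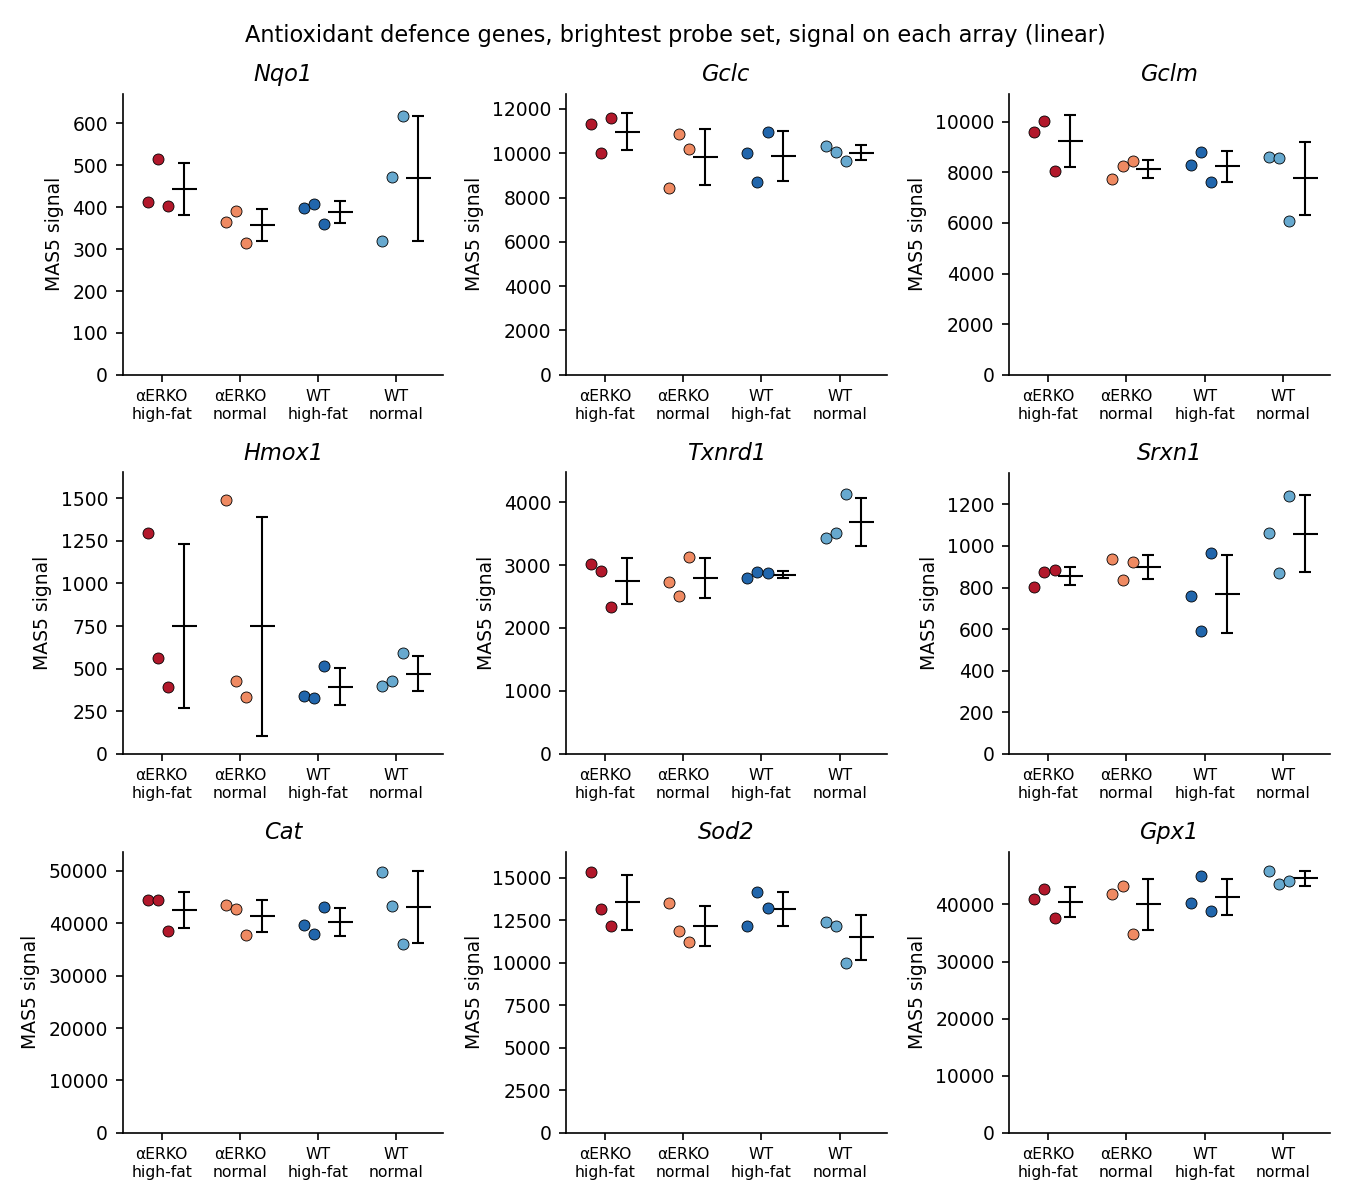
Signal of the brightest probe set (linear MAS5 intensity, vertical axes from 0) on each array for the 9 antioxidant defence genes in the 4 groups. Points are arrays and bars are the mean ± SD of 3 arrays; Txnrd1 is highest on the 3 WT normal arrays (3425 to 4128), and Hmox1 is high on 1 array of each αERKO group (1296 and 1488).

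Cat, Sod2 and Gpx1 remove peroxide and superoxide directly. Catalase averaged 42501 ± 3414 in αERKO high-fat and 41348 ± 3088 in αERKO normal livers, against 40315 ± 2662 in WT high-fat and 43072 ± 6907 in WT normal livers (SD, n = 3 each). Over all 12 arrays the highest was 1.38 times the lowest. On the other Cat probe set (1416429_a_at) αERKO high-fat livers had 41470, 40840 and 44129, against 39472, 38718 and 34878 in WT high-fat livers, which did not overlap. With the diets averaged that probe set was 0.19 ± 0.06 higher in αERKO, which was not called (limma, adjusted p = 0.142 over all probe sets).

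Sod2, the manganese superoxide dismutase of mitochondria, averaged 13556 ± 1619 in αERKO high-fat and 12186 ± 1174 in αERKO normal livers, against 13163 ± 984 in WT high-fat and 11505 ± 1327 in WT normal livers (SD, n = 3 each). Its brightest probe set was 0.15 ± 0.12 higher on the high-fat than on the normal diet in αERKO and 0.20 ± 0.12 in WT, and neither difference passed (limma, adjusted p = 0.711 and 0.698). On the probe set 1448610_a_at, αERKO high-fat livers had 12308, 12659 and 12511, against 10931, 11240 and 11014 in WT high-fat livers, without overlap. On this probe set WT normal livers, at 8567 to 10730, also lay below WT high-fat livers without overlap, and neither difference was called. The lowest array for this and for the brightest Sod2 probe set was WT normal replicate 3, which had the highest array median. Gpx1 had 41761, 43321 and 34899 in αERKO normal livers, against 45938, 43543 and 44183 in WT normal livers. These groups did not overlap, and the difference of -0.16 ± 0.09 was not called (limma, adjusted p = 0.531).

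On the brightest probe sets, 3 of the 10 members had groups without overlap for αERKO against WT on the normal diet (Nox4 higher, Txnrd1 and Gpx1 lower), where 15.8% of all tested genes did. On the high-fat diet it was 1 of 10 (Nox4), against 22.5% of all genes. For high-fat against normal diet it was 2 of 10 in WT (Nox4 higher, Txnrd1 lower), against 14.3% of all genes, and 1 of 10 in αERKO (Nqo1 higher), against 16.7%. No such share was taken over all probe sets, so the separations of dimmer probe sets given above have none beside them. The median log2 difference of the members was -0.04 for αERKO against WT on the normal diet, beside -0.05 over all genes, and 0.16 on the high-fat diet, beside -0.03.

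**Figure D4:**
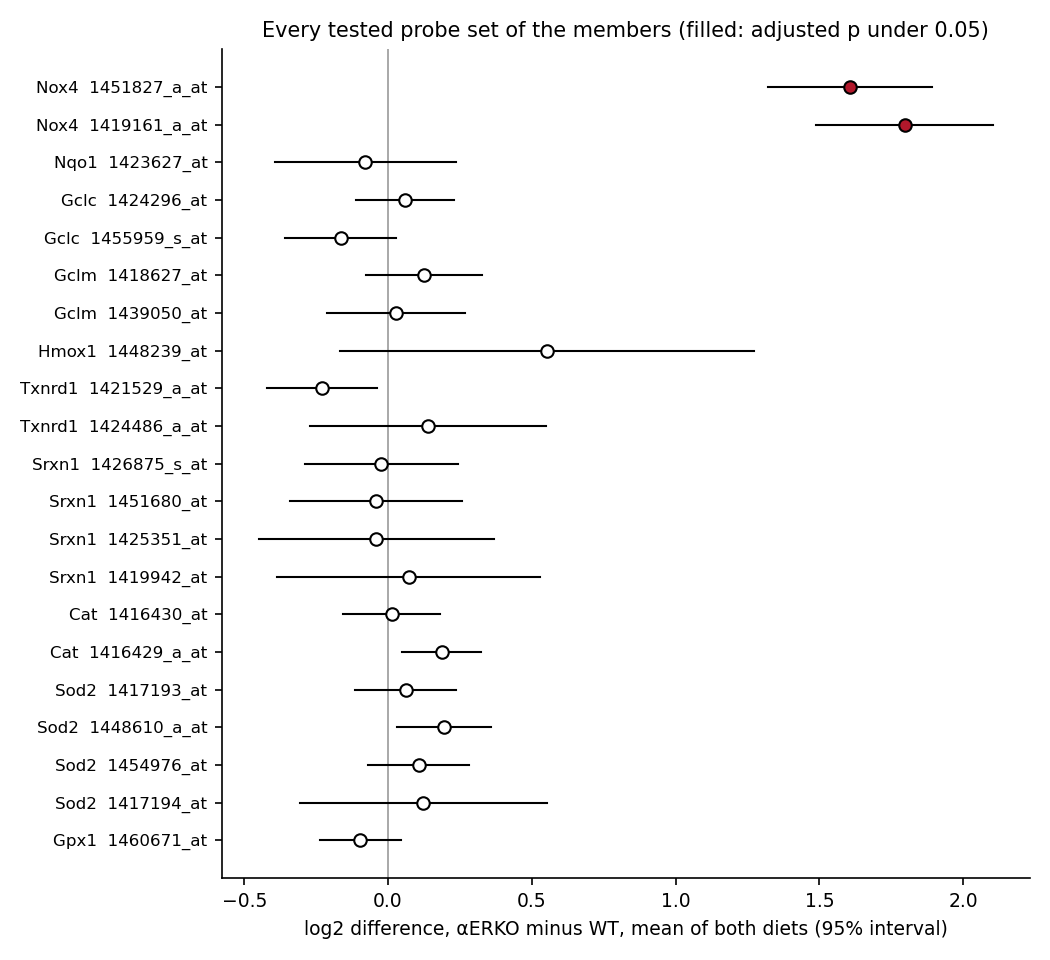
Log2 difference between αERKO and WT, averaged over both diets (horizontal axis), with its 95% interval for each of the 21 tested probe sets of the 10 members. The 2 Nox4 probe sets lie at 1.61 and 1.80, filled for an adjusted p under 0.05, and no other probe set is filled.

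The genes whose pattern was most like that of Nox4 were found by Pearson correlation of log2(signal + 16) over the 12 arrays. They were Mug1 (0.963), which encodes a murinoglobulin protease inhibitor, C8b (0.948), the beta chain of complement component C8, C1galt1c1 (0.945), a chaperone of O-glycan synthesis, Gm20319 (0.942) and the sulfotransferase Sult2a8 (0.942). The arrays of a group share genotype and diet, and after group means were removed the correlations were 0.76, 0.62, 0.42, 0.85 and 0.68 in the same order. C8b averaged 2159 ± 305 in αERKO high-fat and 3227 ± 261 in αERKO normal livers, against 1424 ± 158 in WT high-fat and 970 ± 152 in WT normal livers (SD, n = 3 each), so that it too was lowest in WT normal livers. None of the other 9 members was among these genes. The correlation of Nox4 with Txnrd1 was -0.73 over the 12 arrays and -0.12 after group means were removed.

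No call was seen among the partners and regulators of NOX4, in lists too short to hold many at the share of all genes called. Of 7 other NADPH oxidase subunits that were tested, 0 were called in any of the 7 comparisons, while between 9 and 530 of the 12264 genes were called in the 6 comparisons other than the interaction. Cyba, the p22phox subunit that NOX4 needs, had signals of 372 to 552 in αERKO high-fat and 409 to 562 in αERKO normal livers, against 404 to 515 in WT high-fat and 422 to 621 in WT normal livers. With the diets averaged it differed by -0.02 ± 0.14. Cybb, the catalytic subunit of the phagocyte oxidase, differed by -0.48 ± 0.13 (limma, adjusted p = 0.0574), beside the lower macrophage markers in αERKO given above. Of 8 TGF beta signalling genes, a pathway known to induce Nox4 in stellate cells, 0 were called in any comparison, beside at most 4.32% of all genes.

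Of 11 NRF2 pathway regulators 0 were called for genotype, beside 1.22% of all genes on the normal diet, 1.98% on the high-fat diet and 4.32% averaged. Nfe2l2, which encodes NRF2, differed by -0.07 ± 0.09 and Keap1 by -0.14 ± 0.10 between αERKO and WT with the diets averaged. Bach1, the repressor of Hmox1, was lower in αERKO livers on the high-fat diet (2241 ± 160) than on the normal diet (3662 ± 534), by -0.70 ± 0.14 (limma, adjusted p = 0.0466). In WT livers it was 2807 ± 202 on the high-fat and 2767 ± 478 on the normal diet (SD, n = 3 each). The Bach1 call passed in 9 of 26 alternatives, with adjusted p-values from 0.0148 to 0.502, and it ended without any 1 of 9 arrays: αERKO high-fat replicates 1, 2 and 3, αERKO normal replicates 1 and 3, WT high-fat replicates 1, 2 and 3, and WT normal replicate 2.

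Related enzymes that are no members were followed through 15 lists of redox genes, of which 152 genes were tested. The lists were chosen with earlier results of these data known. A share above that of all genes is therefore only a description. With the diets averaged, 13 were higher and 4 lower in αERKO than in WT livers, or 11.2% of the 152, beside 4.32% of all genes. The median difference of the 152 genes was 0.04, beside -0.05 over all genes. Of these calls the largest difference was that of Hao2, which encodes a peroxide-producing hydroxyacid oxidase. Hao2 was lower in αERKO by -2.87 ± 0.21 (limma, adjusted p = 1.56e-06), with 767 ± 270 in αERKO high-fat and 174 ± 58.4 in αERKO normal livers, against 2599 ± 745 in WT high-fat and 2995 ± 866 in WT normal livers. Hao1, the glycolate oxidase of peroxisomes, was higher by 0.75 ± 0.10 (limma, adjusted p = 0.000480).

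Among glutathione S-transferases, which conjugate glutathione to electrophiles, 4 of 20 rose and 1 fell. Gsta2 rose by 1.35 ± 0.19 and Gstp1 by 0.59 ± 0.07 (limma, adjusted p = 0.000617 and 0.000128). Gstm2, Gstm6 and Gstt2 were called as well, at 0.56, 0.70 and -0.30, but members of this family share sequence, so that their single values are uncertain. Of 15 genes of the thioredoxin and peroxiredoxin system 1 rose and 1 fell. Txnip, an inhibitor of thioredoxin, was lower by -0.60 ± 0.07 (limma, adjusted p = 0.000137), with 1961 ± 167 in αERKO high-fat and 2779 ± 179 in αERKO normal livers, against 3543 ± 114 in WT high-fat and 3553 ± 139 in WT normal livers. Prdx2, a cytosolic peroxiredoxin, was higher by 0.37 ± 0.07.

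Taldo1, the transaldolase of the pentose phosphate pathway, was higher by 0.62 ± 0.08 (limma, adjusted p = 0.000200), the only call among 10 genes listed for NADPH supply. Of the 7 other glutathione peroxidases Gpx4, which reduces lipid peroxides, was called at 0.60 ± 0.10 (limma, adjusted p = 0.00352). Its call ended without the 4 arrays with pancreatic transcripts, where only replicate 1 of WT high-fat was left. Of 12 other NRF2 targets 2 rose, Ugdh (0.67 ± 0.15) and Aox1 (0.40 ± 0.08). The remaining calls were Selenof (0.65), Glo1 (0.30), Sod1 (0.28) and Ppara (-0.35). Of these 17 calls, those of Hao1, Hao2, Gsta2, Gstp1, Taldo1 and Txnip passed in all 25 alternatives. The other 11 ended in at least 1, with highest adjusted p-values between 0.0782 (Ugdh) and 0.723 (Sod1), and Selenof was 0.19 when all its probe sets were averaged. Without the 2 arrays with muscle transcripts, 9 of the 152 genes were called. Without WT high-fat replicate 1 the count was 11, and over all 25 alternatives it ran from 9 to 27.

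**Figure D5:**
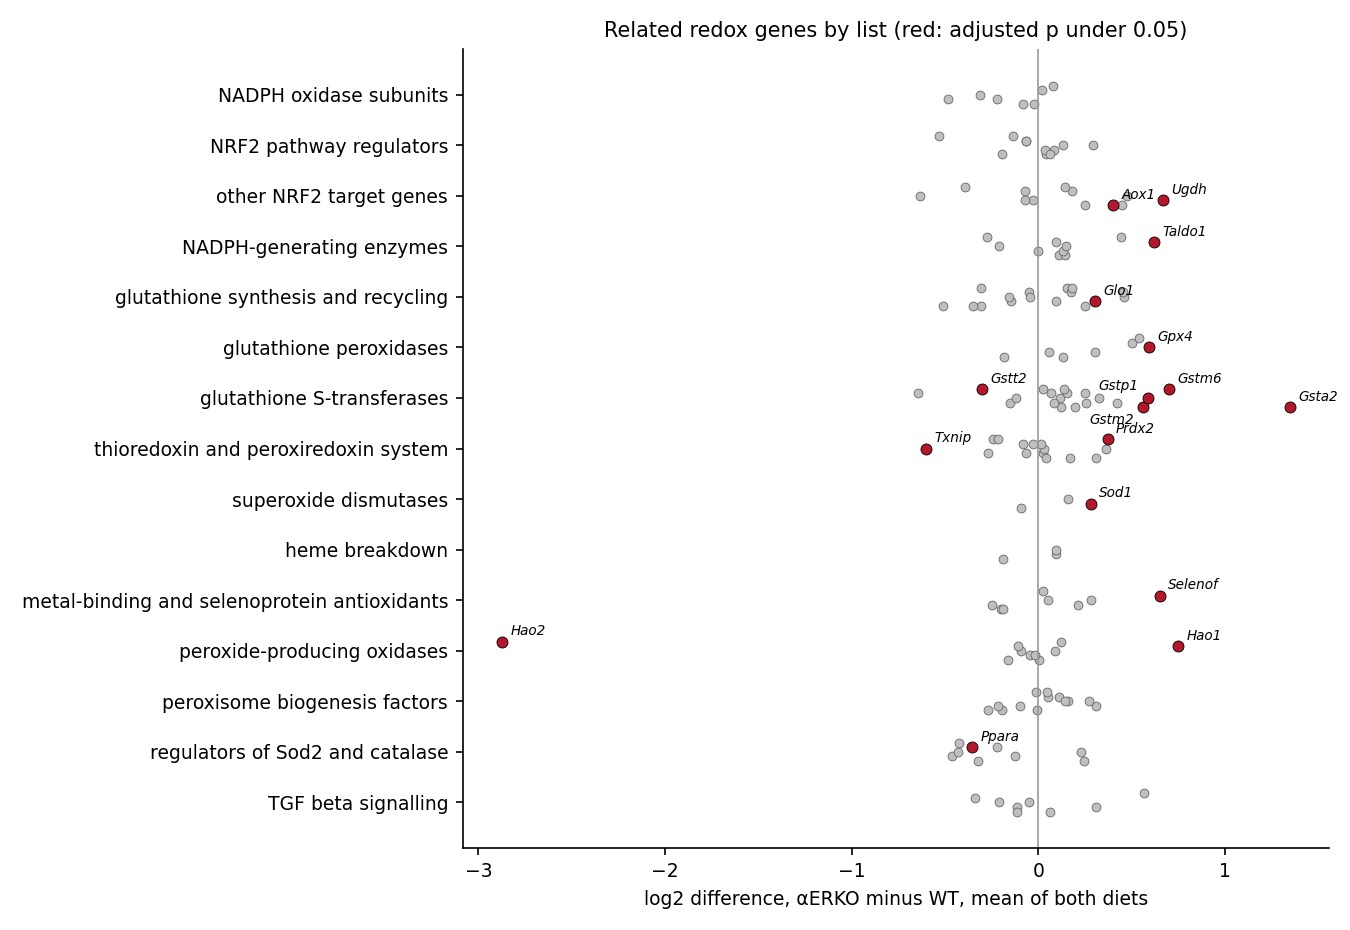
Log2 difference between αERKO and WT, averaged over both diets (horizontal axis), for the 152 tested genes of the 15 redox lists (rows); each point is a gene and red points have an adjusted p under 0.05. Hao2 lies at -2.87 and Gsta2 at 1.35, while the rows for NADPH oxidase subunits and NRF2 pathway regulators hold no red point.

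Within one diet, 4 of the 152 genes were called for αERKO against WT on the normal diet (2.63%, beside 1.22% of all genes) and 12 on the high-fat diet (7.89%, beside 1.98%). Like the share above, the shares for these lists are only a description, because of how the lists were chosen. For high-fat against normal diet 1 was called in WT, Gstm1 (-0.72 ± 0.12, limma, adjusted p = 0.0382), and 4 in αERKO. Those 4 were Hao2 (2.04 ± 0.30), Ggct (0.68 ± 0.14), which acts in glutathione breakdown, Bach1 and Txnip (-0.50 ± 0.10). Over the alternatives the adjusted p reached 0.0671 for Hao2 (without the intensity trend), 0.530 for Gstm1, 0.416 for Ggct and 0.540 for Txnip. The Hao2 call held when any single array was left out. With the genotypes averaged, 9 of the 152 genes were called for diet (5.92%, beside 0.946% of all genes), 4 higher and 5 lower. That count was 0 without the 2 arrays with muscle transcripts, 0 with median centring and 0 without the intensity trend. It ran from 0 to 12 over 25 alternatives.

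These counts within one diet depended on the arrays used. For αERKO against WT on the high-fat diet, no count is given without the 4 arrays with pancreatic transcripts. Only replicate 1 of WT high-fat was then left. The count of 12 was 7 without the 2 arrays with muscle transcripts, 7 without αERKO high-fat replicate 2 and 6 with median centring. It was 6 when the scores of both tissues entered as covariates. Apart from the fit without those 4 arrays, it ran from 6 to 28 over the alternatives. On the normal diet the count of 4 became 2 without the arrays with pancreatic transcripts, 2 without those with muscle transcripts and 2 without αERKO normal replicate 1. For high-fat against normal diet in αERKO the count of 4 became 1 without either set of arrays and ran from 0 to 13 over the alternatives. It was 1 or 2 without any single array other than αERKO high-fat replicate 3 and WT normal replicates 1 and 3. The Gstm1 call in WT was lost without the arrays with muscle transcripts, and without any 1 of 8 arrays: αERKO high-fat replicate 2, αERKO normal replicates 2 and 3, WT high-fat replicates 1 and 2, and WT normal replicates 1, 2 and 3.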

How the data were processed

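The submitters' processing notes name MAS5 and Affymetrix Expression Console as tools, and the version of neither is given in the sources used here. Each probe set has, on every array, an intensity that the authors deposited as a linear MAS5 signal. Array medians lay between 75.6 and 114. Detection flags and scan batches were not used here.

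Probe sets with 1 symbol in the platform annotation were named (34958 of 45101). Each gene was represented by its brightest probe set, and genes above the array median on at least 3 of 12 arrays were kept (12264 genes, or 25412 probe sets in a separate fit). In R 4.3.3, limma 3.58.1 was fitted to log2(signal + 16) with 1 mean per group, 8 residual degrees of freedom and an intensity trend, and p-values were adjusted by Benjamini-Hochberg over the whole table. A call is an adjusted p under 0.05. The procedure was tested on simulated data.

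Members and gene lists were chosen with earlier results of these data known. List genes were named if called for genotype with the diets averaged, or for diet within a genotype. Other calls of list genes were only counted. Cyba, Cybb, Nfe2l2 and Keap1 were named without a call. Same-numbered replicates had correlations of -0.15 to 0.21 in their deviations from group means, with 4 of 12 over 0.1. Differently numbered replicates ran from -0.25 to 0.26. No pairing by number was thus seen and none was used in the main fit, but so few arrays cannot exclude it.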

Additional observations from a re-analysis of the deposited data

How the results depend on the processing

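Of 179 counts of called members under the alternatives, 175 were equal to the original, which was 1 for genotype and 0 for diet and the interaction. For αERKO against WT on the high-fat diet the count was 0 with pancreatic and muscle scores as covariates (Nox4 0.97, limma, adjusted p = 0.0703). Without the 4 arrays with pancreatic transcripts that comparison kept only replicate 1 of WT high-fat, and no count is given. Leaving out single arrays gave 0 to 1 called members for that comparison (0 without αERKO high-fat replicate 2) and 0 to 1 for high-fat against normal diet in WT (1 without WT high-fat replicate 3). Of 1790 log2 differences of members, 1779 moved by less than the residual SD, 11 moved by more and 0 called values reversed. Many of the 1779 could not move. Another filter, no intensity trend, the replicate block or a fit of only the groups compared leaves a difference as it is. So does leaving out an array of a group that is not compared. Nox4 ranged from 1.99 to 2.31 on the normal diet and from 0.85 to 1.26 on the high-fat diet. With the replicate number as a block, Nox4 had adjusted p-values of 4.93e-05 and 0.00755 (limma), and no call of a member changed. Averaging all probe sets of a gene turned Sod1 to -0.075 for αERKO against WT with the diets averaged; the cause was not tested. Its call also ended without WT high-fat replicate 2 (adjusted p = 0.0532) or 3 (adjusted p = 0.0505, limma). Median centring shifted the median difference of all genes from -0.05 to 0.09 for αERKO against WT on the normal diet and from -0.03 to 0.07 on the high-fat diet, and the small differences of the antioxidant genes are read relative to that. Signals near the array median, as for the dimmer Nox4 probe set in WT normal livers, limit the size of the folds.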
